A study of Mus musculus with 9 samples.

Results

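The genes that encode IκB proteins were described as targets of RelA and RelB binding: the 3 classical inhibitors *Nfkbia* (IκBα), *Nfkbib* (IκBβ) and *Nfkbie* (IκBε), and the 3 nuclear IκB genes *Nfkbiz* (IκBζ), *Nfkbid* (IκBNS) and *Bcl3*. Peaks were taken as belonging to a gene when their centre lay within 50 kb of its start site, which gave 98 of the 25055 peaks in the 8 lists. The 6 genes were chosen from 37310 annotated genes by name, with earlier results of these data known. The data came from *Nfkb2* -/- mouse embryonic fibroblasts (MEFs), cells that lack the NF-κB precursor and inhibitor p100 in every library, so no wild-type cells stood beside them. Cells received 10 ng/ml of TNF for 0 h or 6 h, and DNA bound by RelA (p65) or by RelB was immunoprecipitated and sequenced (ChIP-seq), with 2 libraries for each antibody and time. The input was 1 sample combined from both replicates, shared by all libraries as the background of the peak calls. Nothing in the labels says whether the replicates came from separate cultures, so the spread between them may be technical.

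IκB proteins bind NF-κB dimers through ankyrin repeats. The classical members hold the dimers in the cytoplasm until the IκB kinase marks them for degradation, and because *Nfkbia* and *Nfkbie* are themselves transcribed by NF-κB, their resynthesis switches the response off again. The nuclear members act on DNA-bound p50 or p52 dimers, where IκBζ and Bcl3 can help to activate genes and IκBNS is best known as a restraint on inflammatory genes. RelA is the main transactivating subunit released by TNF, whereas RelB is kept in check mostly by p100.

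RelA and RelB were found at all 6 genes after 6 h of TNF. Of 42 separate 6 h sites near the 6 genes, 12 were called in each of the 4 libraries (RelA 1, RelA 2, RelB 1 and RelB 2), and every gene had at least 1 of them. Such a site lay within 50 kb of 8.88% of all annotated genes and of 9.82% of protein-coding genes. At 5 of the 6 genes (all but *Nfkbib*) 1 of these sites lay within 1 kb of the gene's own start, a position held by a site of this kind at 0.772% of annotated genes. Separate sites are peaks of the 6 h lists merged where they overlapped by at least 1 bp, and a site was placed by the centre of its strongest peak.

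The κB matches at or near the strongest peaks are shown here because each lay inside a site called with both RelA and RelB. The κB consensus is the sequence that NF-κB dimers contact, and matches to it were searched on both strands of the mm9 genome (Ensembl NCBIM37). Each line gives a match in capitals with 10 genomic bases on either side in lower case, read 5′ to 3′ on the strand stated.
Nfkbiz start site, chr16:55839001-55839030, plus strand: cccgagtcccGGACATTCCCcgccagggcg
Nfkbiz start site, chr16:55838963-55838992, minus strand: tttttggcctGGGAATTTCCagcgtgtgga
Nfkbia start site, chr12:56593644-56593673, minus strand: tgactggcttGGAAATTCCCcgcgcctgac
Nfkbie promoter, chr17:45692533-45692562, plus strand: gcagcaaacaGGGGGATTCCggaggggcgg
Nfkbie intron, chr17:45694750-45694779, plus strand: ccccaagactGGAACTTCCCatcccaactg
Nfkbib coding exon, chr7:29551447-29551476, plus strand: cagccacctcGGGTGGCCCCctgtggtcgc
Nfkbid intron, chr7:31207234-31207263, plus strand: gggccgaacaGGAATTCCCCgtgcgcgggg
Bcl3 intron, chr7:20402969-20402998, minus strand: tgccgcctcgGGGAAATCCCttcccgcaca
Bcl3 start site, chr7:20408170-20408199, minus strand: tggggcggacGGGTGGCCCCgggggcccgg
Bcl3 upstream, chr7:20412314-20412343, minus strand: tgtgggatctGGGACTTTCCtaggcagcta

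In the map of peaks by distance, the strongest peaks of each gene lay within 6 kb of its start. The strength of a peak is the deposited log2 fold of ChIP reads over scaled input in its best window.

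**Figure D1:**
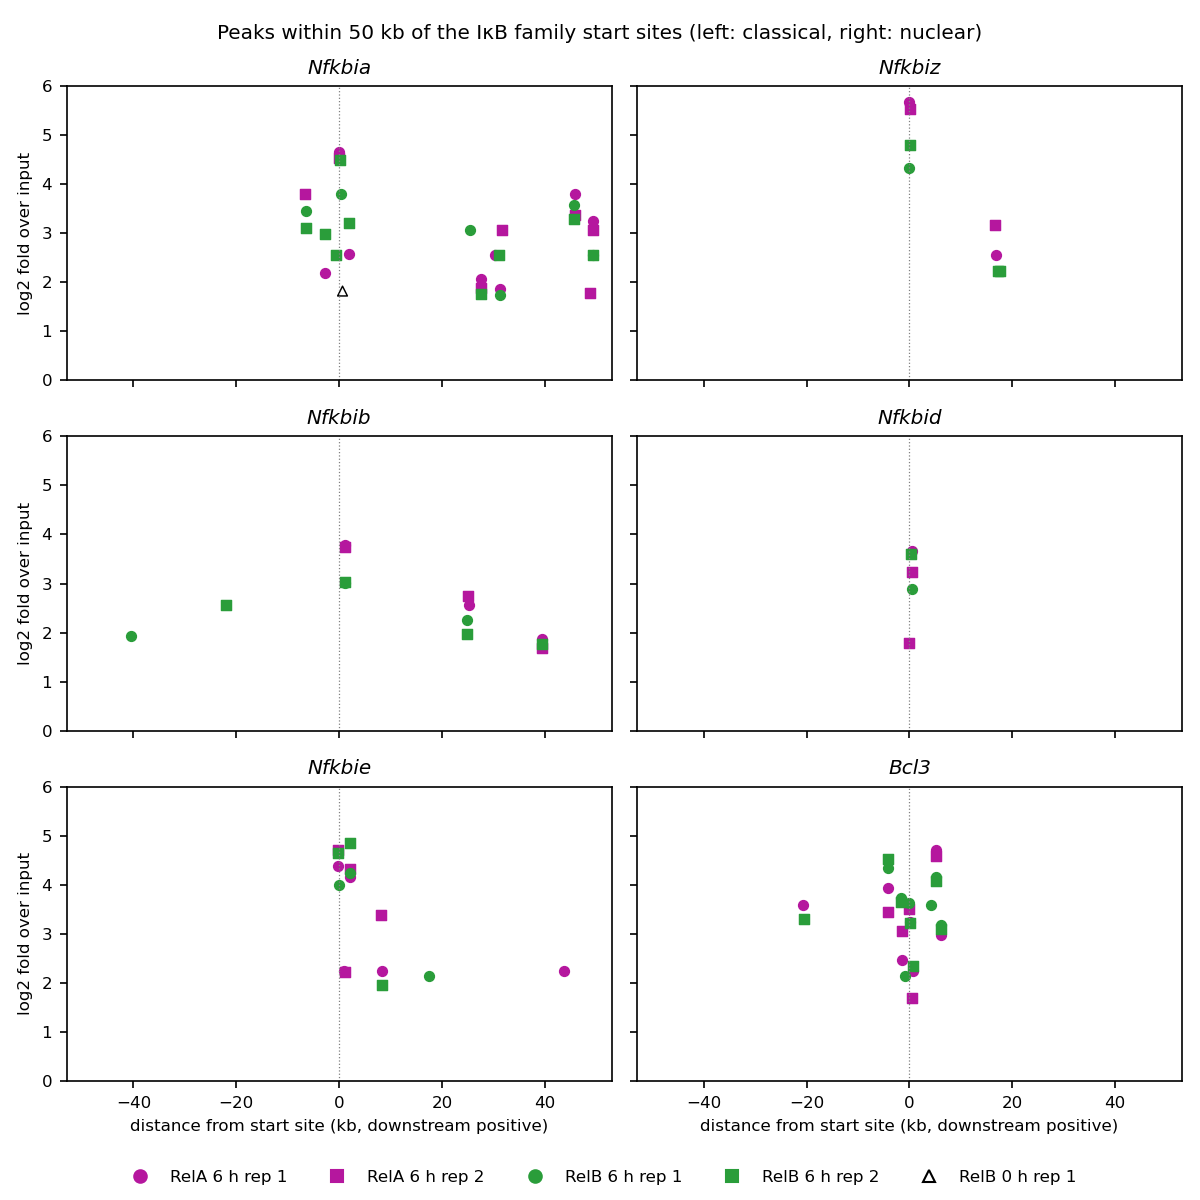
Each point is a peak in 1 library, placed by its distance from the gene's start site (x axis, kb, downstream positive) and its log2 fold over input (y axis), with RelA in purple, RelB in green, replicate 1 as circles, replicate 2 as squares and the 1 peak at 0 h as an open triangle. The *Nfkbiz* start holds the points nearest the top, at 5.67 and 5.52 for RelA, and *Nfkbia* and *Bcl3* have the most points.

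*Nfkbia*, which encodes the fastest-acting of the classical inhibitors, carried the most peaks. The gene lies at chr12:56590398-56593634 on the minus strand, and its 6 h libraries listed 8 and 7 peaks with RelA against 6 and 9 with RelB within 50 kb. Only 0.00268% of annotated genes had as many 6 h peaks in total, which is *Nfkbia* alone, and 0.206% of genes had 3 or more sites called in all 4 libraries, as *Nfkbia* did. These sites were the start of the gene and a pair of intergenic sites 45.8 kb and 49.4 kb downstream.

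The site at the *Nfkbia* start was the one with the most reads in the family. It spanned chr12:56592417-56594098 and its strongest peak was centred 25 bp downstream of the start, in the 5′ UTR. Precipitation of RelA gave log2 folds of 4.65 and 4.53 there, and that of RelB 3.80 and 4.49, with 267, 237, 152 and 186 ChIP reads in the peak, in that order. The called peaks were 213, 144, 1682 and 54 bp long, so these reads do not count the same stretch. Both RelA values were above both RelB values, the second RelB library by a narrow margin. The site ranked 73 of the 1860 sites called in all 4 libraries by mean log2 fold, and it held 5 κB matches. The one at -24.5 bp from the start (shown above) lay under the called peaks of 3 libraries. The others lay under the wide peak of the first RelB library alone. Matches that overlap each other were counted separately, here and at the other sites.

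The downstream sites of *Nfkbia* were weaker. At chr12:56547696-56548080 the log2 fold was 3.79 and 3.38 with RelA against 3.57 and 3.30 with RelB, so the antibodies overlapped. At chr12:56544128-56544363 it was 3.25 and 3.07 with RelA against 2.55 and 2.56 with RelB, so both RelA libraries stood above both RelB libraries. The centre of this last site was 49382.5 bp from the start, just inside the 50 kb limit, and with a limit of 100 kb *Nfkbia* had 5 sites called in all 4 libraries in place of 3. Another group of weak peaks lay 25.5 to 31.7 kb downstream, where each library called peaks but mostly in different places: 6 of the 7 sites there were called in 1 library.

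*Nfkbia* was also the only family gene with a peak before TNF. The first RelB library at 0 h listed a 29 bp peak at chr12:56592960-56592988, inside the 6 h site and 660 bp downstream of the start. It rested on 14 ChIP reads over 7 input reads (log2 fold 1.82), and its FDR of 0.0942 was near the limit of 0.1 that the lists were made with, and the other RelB library and both RelA libraries at 0 h listed none. Over all annotated genes, 1.20% had a peak within 50 kb in any 0 h library.

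*Nfkbib* (chr7:29543270-29552531, minus strand), whose product IκBβ is degraded and remade more slowly, was the classical gene with the weakest signal. Its libraries listed 3 and 3 peaks with RelA against 3 and 4 with RelB. The site nearest to the start, chr7:29551276-29551483, lay 1140.5 bp downstream in a coding exon of *Nfkbib* and 363.5 bp from the start of *Sirt2*, a deacetylase gene. Its log2 fold was 3.79 and 3.75 with RelA against 3.01 and 3.04 with RelB, with replicates that nearly coincided and antibodies that did not overlap.

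The other *Nfkbib* site called in all 4 libraries was 25.1 kb downstream, at chr7:29527271-29527744, in an intron of *Sars2* and 437 bp from the start of that mitochondrial seryl-tRNA synthetase gene. Its log2 fold was 2.57 and 2.75 with RelA against 2.25 and 1.97 with RelB, it ranked 1766 of 1860, and it was the only site of the 12 with no κB match anywhere in it. Under an FDR limit of 0.01 it was no longer called in all 4 libraries, because its FDR was 0.0859 in the second RelB library. Neither *Nfkbib* site had *Nfkbib* as its nearest protein-coding start, whereas the other 10 of the 12 sites had the family gene as theirs.

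*Nfkbie* (chr17:45692665-45700118, plus strand), whose product IκBε is induced later than IκBα in the textbook circuit, had 5 and 4 peaks with RelA against 3 and 3 with RelB. The promoter site, chr17:45692477-45692628, was centred 158 bp upstream of the start. It reached 4.39 and 4.70 with RelA against 4.0 and 4.64 with RelB, and ranked 58 of 1860. The κB match shown for this site lay under the called peak of only 1 library, the first with RelB. The second site, chr17:45694408-45695160, lay 2112.5 bp downstream in an intron of *Nfkbie*, at 4.17 and 4.32 with RelA against 4.25 and 4.86 with RelB, and ranked 64. At neither site did the antibodies separate.

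That intronic site held 8 κB matches, the most of the 12, of which 5 lay under called peaks of all 4 libraries and the others under those of 3. Some of the 8 overlapped each other. Between the promoter and the intron, both RelA libraries but no RelB library called a weak site at chr17:45693464-45694020 (log2 fold 2.24 and 2.22, with 14 and 16 ChIP reads). The remaining *Nfkbie* peaks sat within 254 bp of the starts of other genes, among them a site 25 bp from the start of *Slc35b2* called in 3 libraries.

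*Nfkbiz* (chr16:55811488-55839012, minus strand) carried the strongest site of the family. IκBζ is itself an inducible coactivator, needed for a second wave of inflammatory genes. Its libraries listed few peaks, 2 and 2 with RelA against 1 and 3 with RelB, and 1 site was called in all 4. This site, chr16:55838955-55839240, had its strongest peak centred 6 bp upstream of the start, with log2 folds of 5.67 and 5.52 with RelA against 4.32 and 4.81 with RelB. The peaks held 97, 107, 50 and 60 ChIP reads against 5 to 9 input reads. In all 4 libraries the fold was what a best window with no input read gives, the log2 of a whole number, so it was set by ChIP reads alone. The same held in all 4 libraries at both *Nfkbie* sites above and at the *Bcl3* intron site described below. Such folds (whole to within 0.001) made up 20 of the 97 family peaks at 6 h and 8.44% to 10.8% of all peaks in the 6 h lists. The site ranked 5 of 1860 by mean log2 fold, and a κB match lay across the start itself, under the peaks of all 4 libraries.

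Some 16.6 kb inside *Nfkbiz*, both RelA libraries called an intronic site at chr16:55822000-55822517, with log2 folds of 2.56 and 3.17 and 26 and 27 ChIP reads. The second RelB library listed a pair of narrow peaks nearby, 17.2 kb and 17.6 kb from the start, that did not overlap it. Sites called in both RelA libraries and in no RelB library numbered 2 of the 42 family sites (this one and the *Nfkbie* site above), against 2.65% of all 14781 sites. The reverse was found at 0 family sites, against 3.90% of all sites.

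*Nfkbid* (chr7:31206751-31213765, plus strand) had the fewest peaks, 1 and 2 with RelA against 1 and 1 with RelB, and all of them fell into 1 site. It spanned chr7:31206464-31207520 and was strongest 482.5 bp downstream of the start, in an intron of *Nfkbid*. The log2 fold was 3.66 and 3.24 with RelA against 2.88 and 3.60 with RelB, so the replicates spread as widely as the antibodies. It held 3 κB matches, and 2 of them lay 30 bp or less from the centre of the strongest peak, under the peaks of all 4 libraries.

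*Bcl3* (chr7:20393811-20408119, minus strand) was the nuclear gene with the most peaks, 7 and 5 with RelA against 7 and 7 with RelB, a total of 26 that 0.0402% of annotated genes matched or exceeded. Bcl3 binds p50 and p52 homodimers and can turn them into activators. Its 3 sites called in all 4 libraries put the antibodies in different orders, although no difference between antibodies passed the test given with all family sites. The intronic site 5129.5 bp downstream, chr7:20402834-20403023, had log2 folds of 4.70 and 4.59 with RelA against 4.17 and 4.09 with RelB, and lies within an intron of the overlapping gene *Gm16174* as well. The site at the start, chr7:20407619-20408516, had 3.24 and 3.51 with RelA against 3.62 and 3.22 with RelB.

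The upstream *Bcl3* site, chr7:20412153-20412402, was centred 4203.5 bp before the start and was the one family site at which both RelB libraries stood above both RelA libraries: 4.35 and 4.53 against 3.93 and 3.45. Its ChIP reads were 81 and 83 for RelB and 52 and 40 for RelA. It held 1 κB match, with the 10 letters GGGACTTTCC that made up 231 of the 3207 matches in all 1860 sites when either strand was read. Between this site and the start, a further site at chr7:20409557-20409781 was called with RelB in either replicate (3.73 and 3.65) and with RelA in the second (3.06). The first RelA library had a peak of its own 38 bp away (2.46), and with peaks joined within 100 bp *Bcl3* had 4 sites called in all 4 libraries.

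The change with TNF was tested on the number of peaks within 50 kb. Each of the 6 genes had more peaks in every 6 h library than in any 0 h library, a pattern without overlap that 12.2% of all protein-coding genes showed. The mean was 7.5 peaks at 6 h and 0.25 at 0 h for *Nfkbia*, 6.5 and 0 for *Bcl3*, 3.75 and 0 for *Nfkbie*, 3.25 and 0 for *Nfkbib*, 2 and 0 for *Nfkbiz* and 1.25 and 0 for *Nfkbid* (4 libraries each). A two-sided exact permutation test of 4 against 4 libraries gave p = 0.0286 for each gene, which is the smallest p this design allows. Each group of 4 pooled 2 RelA and 2 RelB libraries, which the test treats as interchangeable. With differences taken within antibody and replicate number, 0 of 6 genes passed, since 4 pairs cannot go below an exact p of 0.125. The whole lists also grew, from 14 to 194 peaks at 0 h to 5192 to 7052 at 6 h, and family peaks made up 0.369% to 0.404% of each 6 h list. Total reads per library are not given by peak lists, so the depth is unknown, and a gene without a peak at 0 h is only one with no call.

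**Figure D2:**
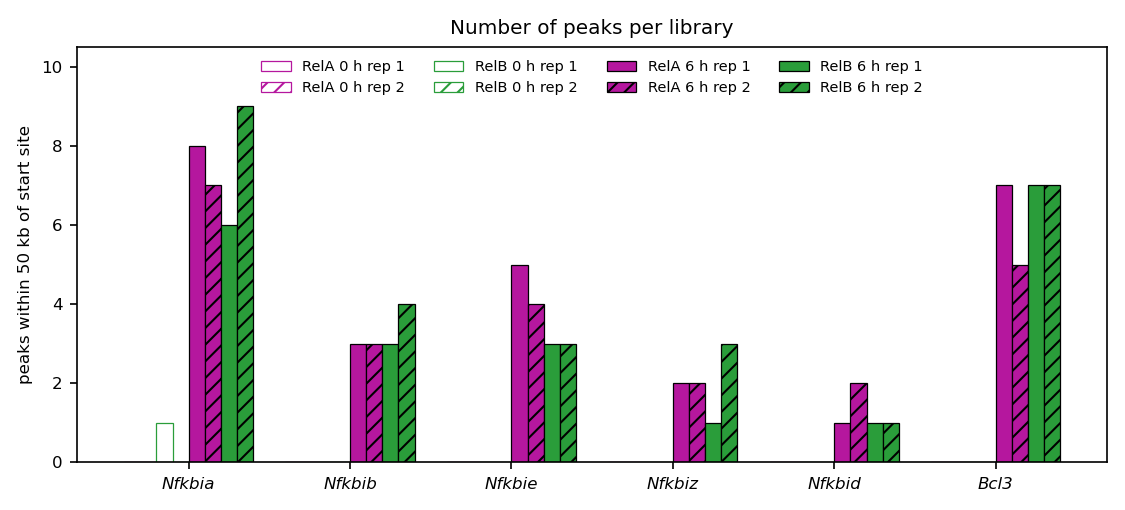
Bars give the number of peaks within 50 kb of each gene's start (y axis) in each of the 8 libraries, open for 0 h and filled for 6 h, RelA in purple and RelB in green, replicate 2 hatched. The 6 h bars run from 1 to 9, and the only bar at 0 h is the 1 peak of the first RelB library at *Nfkbia*.

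The classical genes had more sites within 50 kb, of which *Nfkbia* alone had 16. Which class had more sites called in all 4 libraries, and which had the higher median strength, depended on the distance limit. The 3 classical genes had 27 sites with 58 peaks at 6 h, of which 7 sites (25.9%) were called in all 4 libraries. The 3 nuclear genes had 15 sites with 39 peaks, of which 5 (33.3%) were. The share over all 14781 sites was 12.6%. Sites called in 1 library numbered 14 of 27 for the classical and 5 of 15 for the nuclear genes, together 45.2% of the family's sites against 67.9% of all sites. The median over sites of the mean log2 fold was 3.51 for the classical and 4.06 for the nuclear sites called in all 4 libraries, and 3.19 over all 1860 such sites. Within 10 kb of the start the order turned, with a median of 4.38 over 4 classical sites against 4.06 over 5 nuclear sites, since the classical sites left out there, both downstream *Nfkbia* sites and the *Sars2* intron, had mean folds of 3.51, 2.86 and 2.38. These are descriptions of 3 genes against 3, with ranges that overlapped: 2.38 to 4.43 for classical and 3.35 to 5.08 for nuclear sites. Both *Nfkbie* sites, the *Nfkbiz* start and the *Bcl3* intron entered the medians with folds from windows without input.

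The 19 family sites called in 1 library were weak. Their log2 folds ran from 1.74 to 3.58 with a median of 2.24, and their peaks held 11 to 14 ChIP reads. A site of this size that is missing from a library cannot be told apart from one just under the limit of the caller.

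**Figure D3:**
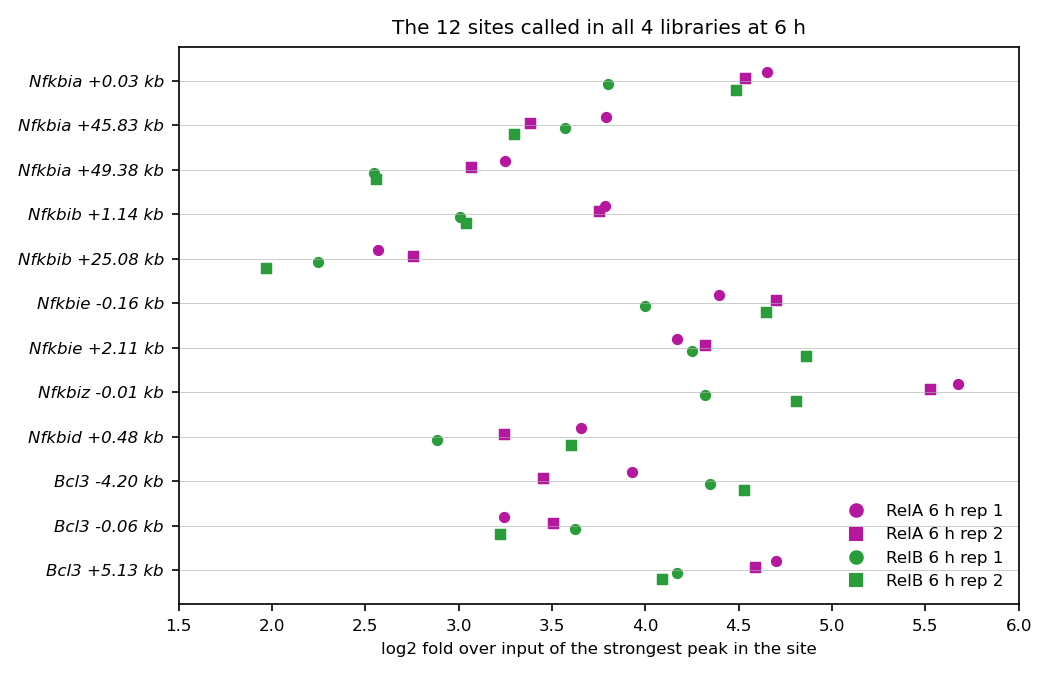
Each row is 1 of the 12 sites called in all 4 libraries at 6 h, named by its gene and its distance from the start, and each point is the log2 fold over input (x axis) in 1 library, RelA in purple, RelB in green, replicate 1 as circles and replicate 2 as squares. The *Nfkbiz* row lies farthest to the right, and only the *Bcl3* row at -4.20 kb has both green points to the right of both purple points.

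The antibodies were compared at these 12 sites with limma, fitted to the log2 folds of all 1860 sites after each library was centred on its median, with Benjamini-Hochberg adjustment over all of them. Differences are log2 fold in RelA minus that in RelB. None of the 12 sites passed an adjusted p of 0.05, which 0.591% of all sites did (11 sites), while an unadjusted p under 0.05 was found at 6 of the 12 and at 313 of the 1860. In 6 of the 12 sites both RelA libraries stood above both RelB libraries after centring, against 24.7% of all sites, and in 1 of the 12, upstream *Bcl3*, the reverse held, against 24.0% of all sites.

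The difference farthest from 0 was at the *Nfkbiz* start, where RelA exceeded RelB by 1.12 ± 0.28 (SE; 95% interval 0.50 to 1.73; limma adjusted p = 0.0865). The fullest windows there held 50 and 45 ChIP reads with RelA against 20 and 27 with RelB, and the folds compared were those of windows without input. The call depended on the setting: the limma adjusted p ran from 0.00262 on ChIP window reads alone to 0.469 without the first RelB library. At the *Nfkbib* exon the difference was 0.83 ± 0.26 (adjusted p = 0.163 in limma), and at the *Nfkbia* site 49.4 kb downstream 0.69 ± 0.26 (adjusted p = 0.231 in limma). At upstream *Bcl3* it was -0.67 ± 0.28 (95% interval -1.28 to -0.05; adjusted p = 0.264 in limma).

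For the remaining 8 sites the differences ran from -0.22 at the *Nfkbie* intron to 0.64 at the *Sars2* intron. At the *Bcl3* start the difference was 0.03 with a 95% interval of -0.60 to 0.67, and without centring it was -0.05, so its sign was not fixed. The median difference over the 12 sites was 0.42, with centring that set the median over all sites near 0. The size of the difference regardless of sign had a median of 0.56 at family sites and 0.31 at all sites.

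**Figure D4:**
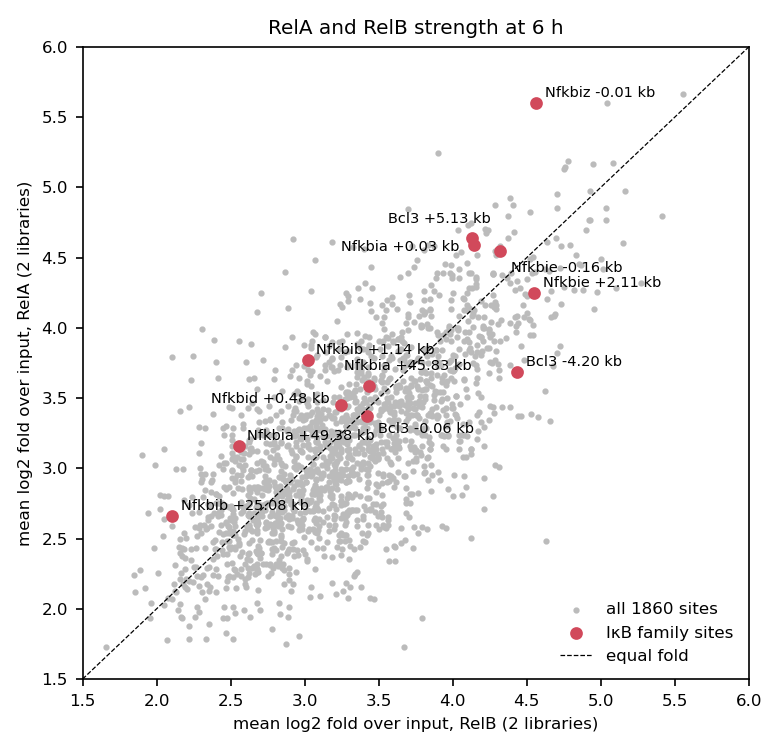
Every grey point is 1 of the 1860 sites called in all 4 libraries, by its mean log2 fold over input in the 2 RelB libraries (x axis) and the 2 RelA libraries (y axis), with the 12 family sites in red and the dashed line marking equal fold. *Nfkbiz* at 5.60 against 4.56 lies farthest above the line among the family sites and upstream *Bcl3* at 3.69 against 4.44 farthest below it.

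The family sites lay near gene starts more often than the rest, as a description with no test. Of the 12, 7 (58.3%) lay within 1 kb of an annotated start site, against 251 (13.5%) of the 1860. Family sites were chosen by lying within 50 kb of a start site, and the 1860 were not. The gap may therefore follow in part from the choice. The GC content of family sites was also high, with a median of 61.7% against 48.8% for all sites, measured within 100 bp of the site centre. The same limit holds for this contrast. The fullest window of a site held, in the library where it was highest, 4 to 10 input reads at family sites, with a median of 6.5, against a median of 7 at all sites. The part of GC content in the calls was not tested.

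The κB consensus was about as common at family sites as elsewhere. A match within 100 bp of the site centre was found at 9 of 12 sites (75.0%) and at 1374 of 1860 (73.9%). In flanking windows of the same length, 1 kb away on either side, it was found at 8 of 24 family windows (33.3%) and in 12.6% of all. The flanking windows were not kept clear of other called sites. Some at *Bcl3* and *Nfkbie* overlapped other 6 h sites, so their share is not a measure of background alone. With the window placed on the strongest peak instead, 11 of 12 family sites (91.7%) and 76.2% of all sites held a match. The sites that gained a match were the wide ones at *Nfkbia* and *Nfkbid*, whose strongest peak lay away from the centre. Within the 12 sites, 8 had at least 2 matches, against 48.5% of all sites, with overlapping matches counted separately in either set. At the *Bcl3* intron and at each downstream *Nfkbia* site, the matches only overlapped each other. The AP-1 sequence TGANTCA, searched on both strands in the same window at the site centre, was found at 1 family site, the *Nfkbie* promoter, and at 16.5% of all sites.

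The 100 bases next to the start of *Nfkbiz*, and 200 for *Nfkbia* and *Nfkbie*, show how the matches are placed in the promoters, printed on the strand of each gene with the last base just before the start and the κB matches in capitals (mm9). Only matches that lie wholly within a stretch are in capitals. The *Nfkbiz* match across the start is therefore cut off and in lower case, and the capitals there mark another match of that site.
Nfkbia, chr12:56593635-56593834, minus strand: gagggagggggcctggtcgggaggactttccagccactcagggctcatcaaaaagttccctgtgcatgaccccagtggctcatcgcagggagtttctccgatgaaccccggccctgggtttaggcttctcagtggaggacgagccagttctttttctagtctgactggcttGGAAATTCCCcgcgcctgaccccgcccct
Nfkbie, chr17:45692465-45692664, plus strand: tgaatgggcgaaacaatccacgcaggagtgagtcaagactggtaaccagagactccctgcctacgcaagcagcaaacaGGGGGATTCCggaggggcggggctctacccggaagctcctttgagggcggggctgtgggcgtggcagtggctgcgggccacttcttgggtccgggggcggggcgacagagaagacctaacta
Nfkbiz, chr16:55839013-55839112, minus strand: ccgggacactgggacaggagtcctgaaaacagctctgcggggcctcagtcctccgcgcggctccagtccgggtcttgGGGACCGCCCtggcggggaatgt

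The other genes of the pathway give the frame for these counts. All 5 NF-κB subunit genes had a site called in all 4 libraries within 50 kb, 6 sites in sum, as did 9 of 10 further feedback genes, 18 sites in sum when the 2 sites shared by *Birc2* and *Birc3* are counted for each. Among the feedback genes, the deubiquitinase gene *Tnfaip3* (A20) had 4 such sites, 1 more than *Nfkbia* and *Bcl3*, and its partner *Tnip1* had 3. Of the kinase genes, *Map3k14* (NIK) had 1 site, and *Chuk*, *Ikbkb* and *Ikbkg*, the subunits of the IκB kinase that marks the classical inhibitors for degradation, had no peak within 50 kb in any library. Of 5 control genes (*Actb*, *Gapdh*, *Hprt*, *Tbp* and *Psmc4*), *Actb* had 1 such site. The authors grouped *Psmc4* with genes that need RelB for induction by TNF, and reported no RelA or RelB recruitment there. Its lack of such a site was thus known beforehand. The authors also reported that RelA and RelB both bound *Bcl3* in these cells, so binding at that family gene was known as well.

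The subunit genes ranged as widely in strength. The strongest peak was taken in each library singly within 50 kb of the start, so the values for a gene need not come from the same site. Near *Relb* they were 5.21 and 5.29 with RelA against 4.70 and 3.10 with RelB. Near *Rela* they were 4.16 and 4.06 with RelA against 2.38 and 2.97 with RelB (log2 fold). At *Nfkb1*, which encodes the p50 partner, they were 3.68 and 3.38 with RelA against 3.42 and 3.56 with RelB. Near *Traf2*, an adaptor of the TNF receptor, RelB reached 5.41 and 5.42 and RelA 5.02 and 4.57, and both RelB libraries at 0 h already listed a peak there.

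**Figure D5:**
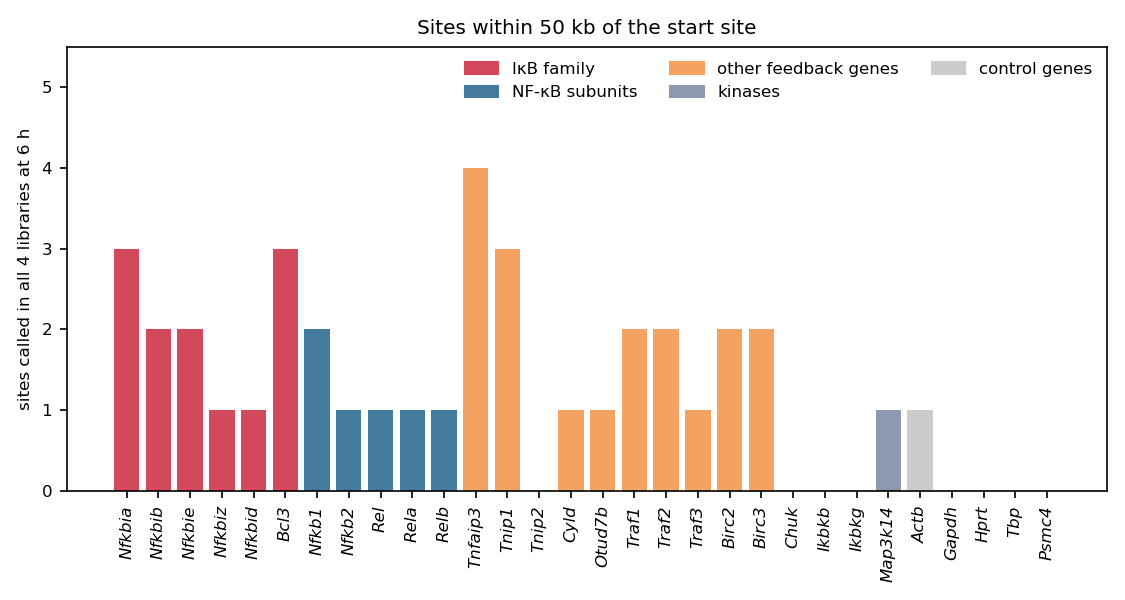
Bars give the number of sites called in all 4 libraries at 6 h within 50 kb of each start (y axis) for the IκB family in red, NF-κB subunits in blue, other feedback genes in orange, kinases in dark grey and control genes in light grey. *Tnfaip3* reaches 4, *Nfkbia*, *Bcl3* and *Tnip1* reach 3, and 3 of the 4 kinase genes and 4 of the 5 control genes are at 0.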

How the data were processed

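*Nfkb2* -/- MEFs were immortalized by the NIH 3T3 protocol, and chromatin was crosslinked with EGS and formaldehyde. The authors trimmed reads with cutadapt, removed bases under quality 20, aligned uniquely with Bowtie to mm9, and called peaks in each library with cisGenome 2.0 against the Nfkb2-/- input. The deposited lists give each peak a q-value (FDR under 0.1), a log2 fold over scaled input with 1 added to both, and counts of ChIP and input reads. Where the best window held no input, that fold was the log2 of ChIP reads plus 1. The input itself was not used here.

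Peaks were assigned by centre to gene starts of GENCODE M1 (NCBIM37) and merged where they overlapped by 1 bp. The members and the pathway lists were chosen with earlier results of these data known. Genes named are the 6 members, the pathway lists and the 2 protein-coding genes nearest to each member in strongest fold over the 8 libraries. Peak numbers were compared by a two-sided exact permutation test. RelA and RelB were compared with limma 3.58.1 in R 4.3.3, checked on simulated data. Sequences and motifs were read from the mm9 FASTA with pysam 0.24.0. Alternative FDR, fold, distance, merging, scaling and motif windows and left-out libraries were tried. Some sequence matches are not reported here.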

Additional observations from a re-analysis of the deposited data

How the results depend on the processing

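The family had 9 to 14 sites called in all libraries under the alternatives tried, against 12: 9 within 10 kb, 14 within 100 kb, 11 at an FDR under 0.01 or a log2 fold of at least 2, 13 with peaks joined within 100 bp, and 12 to 14 when 1 of the 4 libraries was left out. The share of all genes with such a site was 2.47% within 10 kb and 16.1% within 100 kb, and 9.31% to 10.2% with 1 library left out. The rise in peak number from 0 h to 6 h passed at 6 of 6 genes in the settings tried apart from the replicate block, except that leaving out any 0 h library left 5, with *Nfkbiz* at an exact permutation p of 0.0571. With either antibody alone (2 against 2, no test) the 6 h and 0 h libraries did not overlap at 6 of 6 genes. With differences taken within antibody and replicate number (replicate block), 0 of 6 genes passed, since 4 pairs cannot go below an exact p of 0.125. At 6 h, same-numbered RelA and RelB libraries did not deviate together (correlation -0.00256 across sites), so the numbers were not read as pairs between antibodies. Whether same-numbered libraries at 0 h and 6 h belong together was not tested.

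Calls between RelA and RelB over all sites in limma numbered 11, but 30 at an FDR under 0.01, 143 on ChIP window reads, 85 with the replicate block, and 0 to 40 with 1 library left out. These were 0 without either RelB library and 40 and 39 without the first and second RelA library. The *Nfkbiz* start was called at an FDR under 0.01 (1.14, limma adjusted p = 0.031), on window reads (1.00, limma adjusted p = 0.00262) and with the block (limma adjusted p = 0.029), and the *Nfkbia* site 49.4 kb downstream on window reads (0.94, limma adjusted p = 0.00485). Over these and the other alternatives the adjusted p at *Nfkbiz* ran from 0.00262 to 0.469. Of 119 differences recomputed at family sites, 109 kept direction and side, 4 became calls and 6 changed sign. These were the *Bcl3* start (-0.049 without centring, and -0.19 to 0.26 with 1 library left out, below 0 without the second RelA or the second RelB library), the *Nfkbie* intron (0.089 on window reads, and -0.51 to 0.057 with 1 library left out, above 0 without the second RelB library) and *Nfkbid* (-0.045 to 0.62 with 1 library left out, below 0 without the first RelB library). The cause was not tested. The median strength of nuclear minus classical sites was 0.55 within 50 kb and -0.32 within 10 kb, a comparison added after seeing the data. The share of family sites with a κB match was 33.3% within 50 bp of the centre (48.9% of all sites), and 91.7% over the whole site (86.0%) or around the strongest peak (76.2%). Peak lists give no total depth, so a missing peak is a missing call and not an absence of binding.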

Other observations

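Some genes had a profile of strongest peaks over the 8 libraries close to that of a family gene, measured as the Euclidean distance of log2 folds among protein-coding genes, with 0 where a library listed no peak. The values of a gene need not come from the same site. At *Bcl3* those for RelA came from the intron site and those for RelB from the upstream site. At *Nfkbie* those for RelA came from the promoter and those for RelB from the intron. *Bcl3* was nearest to *Nfkb2* (distance 0.166), the gene for p100 that is disrupted in these cells, and to *Psd*, which has the same strongest fold in each 6 h library as *Nfkb2*. *Nfkb2* had 4.68 and 4.59 for RelA and 4.38 and 4.37 for RelB. *Nfkbiz* was nearest to *Ripk2* (0.735), a kinase of the NOD receptors, with 5.64 and 5.55 for RelA and 5.0 and 5.09 for RelB. *Nfkbid* was nearest to *Gnaq* (0.104), *Nfkbib* to *2810474O19Rik* (0.13) and *Nfkbie* to *Adamts20* (0.301). *Nfkbia*, alone in the family with a 0 h peak, had no near match over all 8 libraries, the closest being *Abcc6* and *Nomo1* (1.83). Most of this distance was the weak 0 h peak itself (log2 fold 1.82 in 1 library), which neither gene had. At 6 h *Abcc6* had 4.46 and 4.46 for RelA and 3.81 and 4.39 for RelB. *Nfkbia* had 4.65 and 4.53 for RelA and 3.80 and 4.49 for RelB. These are descriptions over 8 libraries, which share 1 input.

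Promoter sequences of RefSeq (GRCm38.p6, 250 bases before to 50 after a start) were searched for the same κB consensus as the sites. A match was found in 26.8% of 32851 promoters, in the 1 entry of each of *Nfkbia*, *Nfkbie* and *Bcl3*, in 1 of 3 entries of *Nfkbid*, and in none of the 1 entry of *Nfkbib*.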
